A study of Mus musculus with 22 samples.

Results

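The genes examined were 10 enzymes of choline and phosphatidylcholine synthesis, chosen by symbol: Pemt, Chka, Chkb, Pcyt1a, Pcyt2, Cept1, Chpt1, Chdh, Etnk1 and Etnk2. All 10 were found among the 55573 genes of the count table, and all 10 were among the 14062 that were tested, which averaged 10 reads or more per library. mRNA-seq was carried out on the livers of 22 C57BL/6 mice, each mouse giving 1 library, and the mice formed 4 groups by genotype and by diet. FLCN KO mice carried floxed Flcn alleles and the Albumin-Cre transgene, whose promoter drives Cre in hepatocytes. Cre mice carried wild-type Flcn with the same transgene, so that both genotypes shared Albumin-Cre. From 6 weeks of age they received chow with 10 kcal percent fat or a diet deficient in methionine and choline (MCD) for 6 weeks. Livers came from mice of 3 months. The paper describes the MCD diet as also high in fat and sucrose, and reports that it caused weight loss. The lack of choline and methionine therefore cannot be told apart from these other features of the diet. There were 6 Cre mice on chow, 5 Cre mice on MCD, 5 FLCN KO mice on chow and 6 FLCN KO mice on MCD. Between 13751347 and 21144388 reads were counted on genes per library.

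Phosphatidylcholine is the main phospholipid of liver membranes, bile and lipoprotein particles. It is made from choline by the Kennedy pathway, in which choline is phosphorylated, activated with CTP and joined to diacylglycerol, and the liver also makes it by methylating phosphatidylethanolamine. Phosphatidylethanolamine itself comes from ethanolamine by a parallel pathway of kinase, cytidyl transferase and transferase. Methylation draws on S-adenosylmethionine, which is made from methionine, so the MCD diet removes the precursor of both routes. The comparison asked how these transcripts differed between livers on the MCD diet and on chow, with and without Flcn.

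On chow the cytidyl transferase of the ethanolamine branch, Pcyt2, and the methyltransferase Pemt stood at the highest levels. With MCD, Pcyt2 fell in both genotypes, Etnk1 fell in both, Chpt1 fell in Cre mice, and Pemt rose in FLCN KO mice. The test of whether the diet effect differed between genotypes called 0 of the 10 enzymes, Chpt1 and Pemt included. Several of the diet calls changed when library size alone was used for scaling. Between genotypes, Etnk2 was lower in FLCN KO livers on both diets, and Pemt and Chka were higher on MCD. Chkb, Pcyt1a, Cept1 and Chdh passed the test in none of the 5 comparisons made with edgeR over all 22 libraries with TMM scaling.

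Promoters are shown for 3 of the enzymes: Pcyt1a, the only one with a match to a searched motif, and Chpt1 and Etnk1, whose transcripts fell with MCD in Cre mice. The sequences run 5′ to 3′ from 250 bases before to 50 after a RefSeq start (GRCm38.p6), and the capitals mark the motif match. RefSeq promoters were at hand for 9 of the 10 genes.
Pcyt1a, plus strand, chr16:32430671-32430970: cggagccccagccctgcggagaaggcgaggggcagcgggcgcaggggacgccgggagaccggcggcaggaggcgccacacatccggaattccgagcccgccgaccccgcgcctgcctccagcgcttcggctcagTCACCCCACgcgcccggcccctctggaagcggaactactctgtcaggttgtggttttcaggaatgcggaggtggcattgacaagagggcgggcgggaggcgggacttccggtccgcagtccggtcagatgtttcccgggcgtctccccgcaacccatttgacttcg
Chpt1, minus strand, chr10:88503921-88504220: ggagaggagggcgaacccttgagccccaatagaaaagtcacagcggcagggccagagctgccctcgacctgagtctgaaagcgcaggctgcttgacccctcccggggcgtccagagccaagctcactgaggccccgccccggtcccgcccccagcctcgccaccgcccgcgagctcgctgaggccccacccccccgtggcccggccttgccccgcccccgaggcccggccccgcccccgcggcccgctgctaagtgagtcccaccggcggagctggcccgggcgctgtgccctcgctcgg
Etnk1, plus strand, chr6:143166980-143167279: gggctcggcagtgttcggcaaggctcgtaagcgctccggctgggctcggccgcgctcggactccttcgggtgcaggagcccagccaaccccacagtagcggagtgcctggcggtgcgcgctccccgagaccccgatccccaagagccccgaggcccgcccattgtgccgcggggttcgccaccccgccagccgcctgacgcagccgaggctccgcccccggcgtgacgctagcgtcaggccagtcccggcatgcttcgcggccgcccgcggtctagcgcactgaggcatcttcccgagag
The search covered 3 motifs on both strands. TCACNCCAC, a form of the sterol regulatory element, is held by 1.24% of the 32851 promoters of this length. Among the 9 genes it was found in the Pcyt1a promoter, beginning 116 bases before the start shown. CACGTG, the E-box read by the TFEB family and others, is held by 7.15% of promoters and was in none of the windows of the 9 genes. A direct repeat of AGGTCA with 1 base between the copies (DR1), read by nuclear receptors, is held by 0.0396% and was in none of them either. These are matches of letters within 300 bases and no measure of binding.

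Flcn was looked at first, as a check of the labels. Its normalised read count (CPM, reads scaled to a common library size with TMM factors) was 26.1 at the lowest and 40.2 at the highest in Cre livers on chow. In FLCN KO livers on chow it was 24.2, 20.0, 16.7, 19.4 and 21.8, all below the Cre livers. The fitted log2 fold change on chow was -0.63 (edgeR quasi-likelihood test, adjusted p = 0.0249). On MCD, Cre livers had 31.7, 18.2, 39.9, 32.5 and 23.6, and FLCN KO livers ranged from 17.6 to 32.6, so that the groups overlapped, with a log2 fold change of -0.16 (edgeR adjusted p = 0.567). The deletion removes only part of the gene, and Albumin-Cre acts in hepatocytes, so counts over the whole gene are a weak check of the label on either diet. Why the groups overlapped on MCD and not on chow was not tested.

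Further features of the libraries were read from the counts because the labels do not give them. Xist, the RNA of the inactive X chromosome of female cells, was at 222.8 CPM or more in 12 libraries and at 1.28 CPM or less in 10. The Y-linked Ddx3y was at 55.6 CPM or more in the livers without Xist and at 15.6 CPM or less in the Xist-high livers, where 5 of the 12 held 5.35 to 15.6 CPM. Where those reads came from was not tested. Livers without Xist were 3 of 6 in Cre chow, 2 of 5 in Cre MCD, 2 of 5 in FLCN KO chow and 3 of 6 in FLCN KO MCD. On chow these were the same 5 livers that had the lowest uniquely mapped shares in the study's quality table, so on chow Xist class and mapping share cannot be told apart. Cre MCD replicate 3 held RNA of skeletal muscle, with Acta1 at 599 CPM and 2883 CPM summed over 10 muscle genes, against 1.18 to 141 CPM in the other Cre MCD livers.

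**Figure D1:**
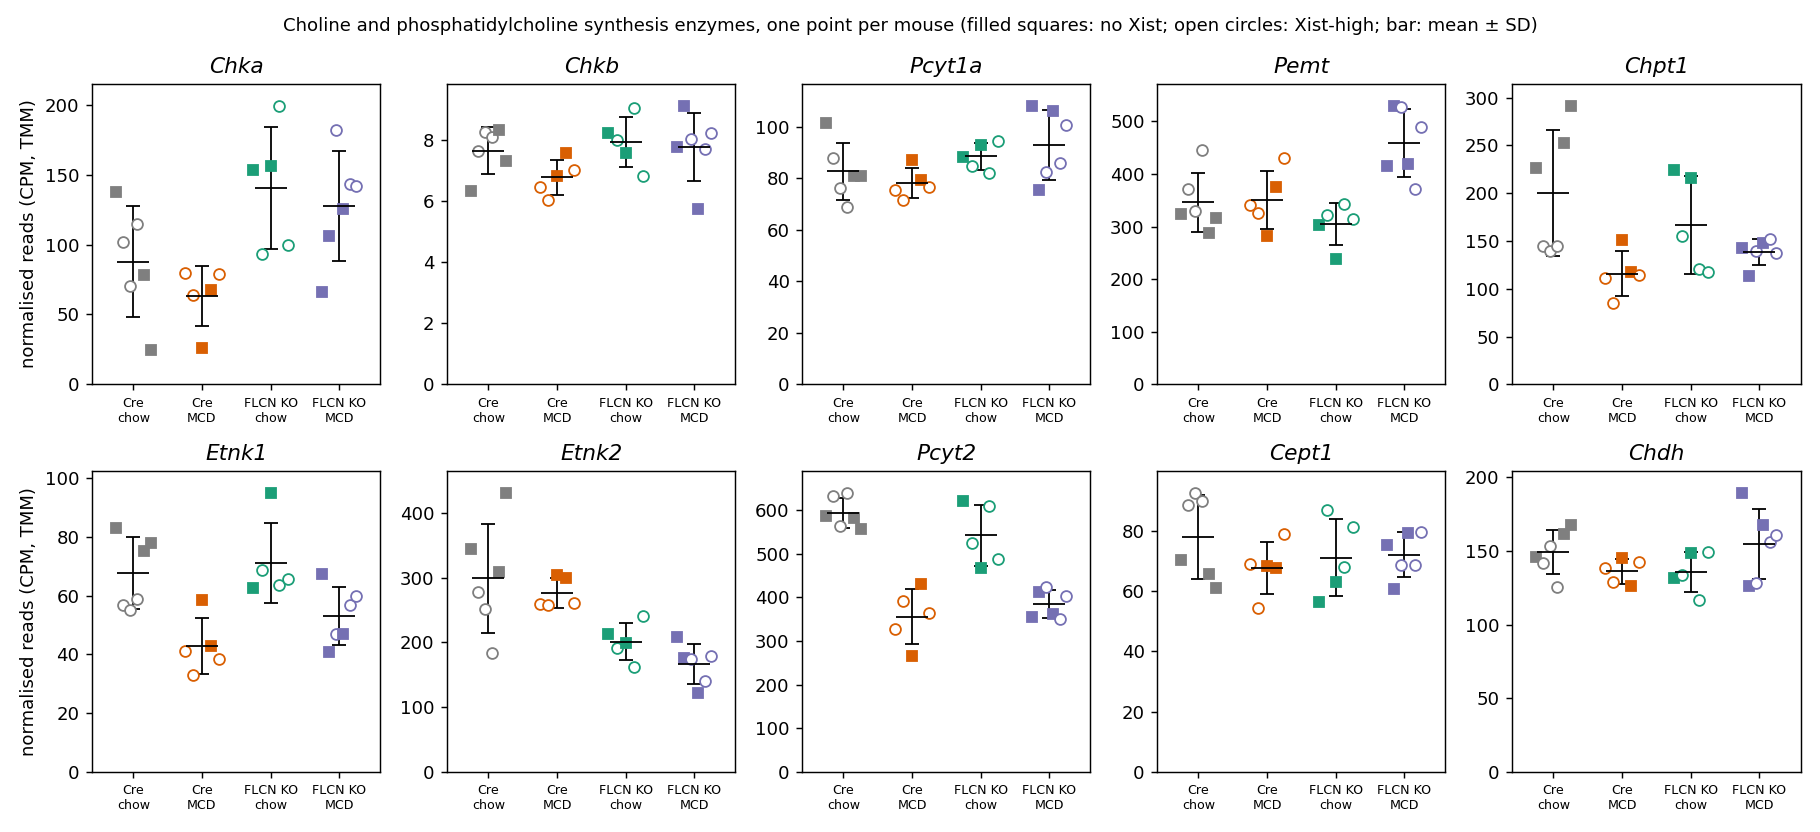
Normalised reads (CPM after TMM scaling, y axis from 0) of the 10 enzymes in each of the 22 livers, by group, with filled squares for livers without Xist, open circles for Xist-high livers, and bars for the mean ± SD. Pcyt2 in MCD livers lies below all chow livers of the same genotype, and Pemt in FLCN KO MCD livers lies above all FLCN KO chow livers.

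Levels of different genes were compared per length, as RPKM, the CPM divided by the union exon length in kilobases. In Cre livers on chow, Pemt stood at 164 ± 26.6 RPKM and Pcyt2 at 136 ± 7.91 (SD, n = 6), and their ranges overlapped on chow. On MCD the ranges were apart, with Pemt at 167 ± 26.3 RPKM over Pcyt2 at 81.9 ± 14.4 in Cre livers and at 218 ± 31.1 over 88.5 ± 7.35 in FLCN KO livers. In Cre livers on chow Etnk2 followed at 65.5 ± 18.5 RPKM, while Cept1 at 25.02 ± 4.45, Chpt1 at 24.0 ± 7.89 and Chdh at 24.0 ± 2.41 did not differ beyond their spread. Pcyt1a stood at 11.2 ± 1.49, Chka at 7.30 ± 3.29, Etnk1 at 4.79 ± 0.867 and Chkb at 2.50 ± 0.249 RPKM. Pemt, Pcyt2 and Etnk2 held the first 3 places in this order and Etnk1 and Chkb the last 2 in all 4 groups, with either the union of exons or the longest transcript as the length. The level of Chkb is uncertain, because 50.7% of its exon bases are shared with Gm44502, a gene model on the same strand.

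The Kennedy pathway begins with choline kinase. Chka (choline kinase alpha, chr19:3851773-3894369) varied widely between livers, with an SD of 39.6 CPM around a mean of 87.8 in Cre chow. In Cre livers it ran from 24.3 through a median of 89.9 to 137 CPM on chow, and was 79.4, 63.7, 26.3, 67.4 and 79.2 on MCD. In FLCN KO livers it was 153, 93.6, 156, 199 and 99.97 CPM on chow, and ran from 66.4 through 134 to 182 on MCD. The highest Cre MCD livers lay above the lowest FLCN KO MCD liver, and the other 5 FLCN KO MCD livers lay above all 5 Cre MCD livers. Fitted over all genes, Chka was 2.02-fold higher in FLCN KO than in Cre livers on MCD (log2 1.01, SE 0.34, edgeR adjusted p = 0.0458). This call held in 9 of 22 fits that each left out 1 mouse, and was lost without Cre Chow 2, 3 or 5, Cre MCD 1, 2, 3 or 4, FLCN KO Chow 1 or 3, or FLCN KO MCD 3, 4, 5 or 6. The lowest log2 value was 0.82 (edgeR adjusted p = 0.0972), without Cre MCD replicate 3, which had the muscle RNA and the lowest Chka of its group. With limma-voom the call was also lost (log2 1.05, limma adjusted p = 0.0523), as it was with library size alone (1.00, edgeR adjusted p = 0.0509) and in livers without Xist alone (1.077, edgeR adjusted p = 0.367), a fit of 10 mice. On chow the log2 fold change between genotypes was 0.68 (edgeR adjusted p = 0.226), and the effect of diet did not pass the test in Cre mice (-0.47, edgeR adjusted p = 0.24) or in FLCN KO mice (-0.14, edgeR adjusted p = 0.761).

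Chkb, the second choline kinase (chr15:89426360-89429908), stayed between 5.75 and 9.13 CPM in all 22 livers. Its log2 fold changes lay between -0.18 and 0.20 in the 4 pairwise comparisons, and none passed the test. The ratio of Chka to Chkb within a library, on the log2 scale with a prior count of 2, was 3.32 ± 0.92 in Cre chow, 3.11 ± 0.68 in Cre MCD, 4.07 ± 0.38 in FLCN KO chow and 3.97 ± 0.55 in FLCN KO MCD (SD).

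Pcyt1a encodes the choline-phosphate cytidyl transferase, known as the rate-limiting enzyme of the pathway (chr16:32430921-32475070). Its level was 82.9 ± 11.1 CPM in Cre chow, 78.1 ± 5.80 in Cre MCD, 88.6 ± 5.18 in FLCN KO chow and 93.1 ± 13.6 in FLCN KO MCD (SD). The groups overlapped in every pair. The 95% interval of the log2 effect of MCD was -0.29 to 0.12 in Cre mice and -0.13 to 0.28 in FLCN KO mice. Against Cre livers on MCD, FLCN KO livers differed by 0.25 on the log2 scale (edgeR adjusted p = 0.086).

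The last step joins CDP-choline to diacylglycerol. Chpt1 (choline phosphotransferase, chr10:88452745-88504073) ran from 140 through a median of 186 to 291 CPM in Cre chow livers. In Cre MCD livers it was 111, 84.8, 151, 117 and 114 CPM, which overlapped with chow only in replicate 3. With MCD Chpt1 fell to 0.579 of its chow level in Cre mice (log2 -0.79, SE 0.21, edgeR adjusted p = 0.00273). In FLCN KO livers it was 225, 155, 215, 121 and 117 CPM on chow and ran from 114 through 141 to 152 on MCD, with a log2 fold change of -0.26 (edgeR adjusted p = 0.309). Whether the diet effect differed between genotypes did not pass the test (log2 difference 0.53, SE 0.29, edgeR adjusted p = 0.28).

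Chpt1 differed between livers by Xist class on chow. Cre chow livers without Xist had 227, 253 and 291 CPM, against 140, 144 and 145 in Xist-high livers, and in FLCN KO chow livers the values were 225 and 215 against 155, 121 and 117. Averaged over genotypes in a fit added after the data were seen, Chpt1 was 1.74-fold higher without Xist on chow (log2 0.80, SE 0.11, edgeR adjusted p = 4.6e-05), and on MCD the log2 difference was 0.14 (SE 0.11, edgeR adjusted p = 0.644). The class difference was smaller on MCD than on chow by 0.65 on the log2 scale (SE 0.15, edgeR adjusted p = 0.0147). Within Xist-high livers alone, MCD changed Chpt1 by -0.47 in Cre mice (edgeR adjusted p = 0.00974) and by 0.13 in FLCN KO mice (edgeR adjusted p = 0.473). Within livers without Xist, the values were -0.92 (edgeR adjusted p = 0.00325) and -0.73 (edgeR adjusted p = 0.0133). Chpt1 thus fell with MCD in Cre livers of both classes. The chow livers without Xist were all of low mapping share and no MCD liver was, so within that class diet and mapping share cannot be told apart. Whether the diet effect differed between classes within a genotype was not tested. With the 5 chow livers of low mapping share left out and all MCD livers kept, the log2 fold change in Cre mice was -0.31 (edgeR adjusted p = 0.0789).

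Cept1 makes both phosphatidylcholine and phosphatidylethanolamine (chr3:106502260-106547802). It stood at 78.0 ± 13.9 CPM in Cre chow, 67.7 ± 8.77 in Cre MCD, 71.1 ± 12.7 in FLCN KO chow and 72.1 ± 7.39 in FLCN KO MCD (SD), and passed none of the 5 tests over all 22 libraries. Without the 5 chow livers of low mapping share it was called lower with MCD in Cre mice (log2 -0.42, edgeR). By Xist class it went opposite to Chpt1 on chow. The 5 chow livers without Xist had 56.3 to 70.3 CPM and the 6 Xist-high chow livers 67.9 to 92.4 with overlap (log2 -0.43, SE 0.10, edgeR adjusted p = 0.00774). On MCD the log2 difference was under 0.01 in size (SE 0.10). Within Xist-high livers, Cept1 was lower on MCD in Cre mice (log2 -0.42, edgeR adjusted p = 0.018), and within livers without Xist the log2 fold change was 0.07 (edgeR adjusted p = 0.731). Of its exon bases, 24.7% overlap Dennd2d on the other strand, and the strand setting of the counting is not given in the sources used here.

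Of the 10 enzymes, Chpt1 and Cept1 passed the test by Xist class on chow, against a background of 11.8% of all genes tested. The chow livers without Xist were the 5 livers of low mapping share, and no MCD liver was of low share. The values by class on chow, and their difference from MCD, therefore cannot be told apart from mapping share. On MCD none passed, against 0.434% of all genes tested, with 0 enzymes at an unadjusted p under 0.05. Among the 10 enzymes only Chpt1 passed the test of the difference between diets, against 7.48%. The ratio of Cept1 to Chpt1 within a library was -1.31 ± 0.73 on the log2 scale in Cre chow and -0.76 ± 0.23 in Cre MCD, so that the spread was wider on chow.

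**Figure D2:**
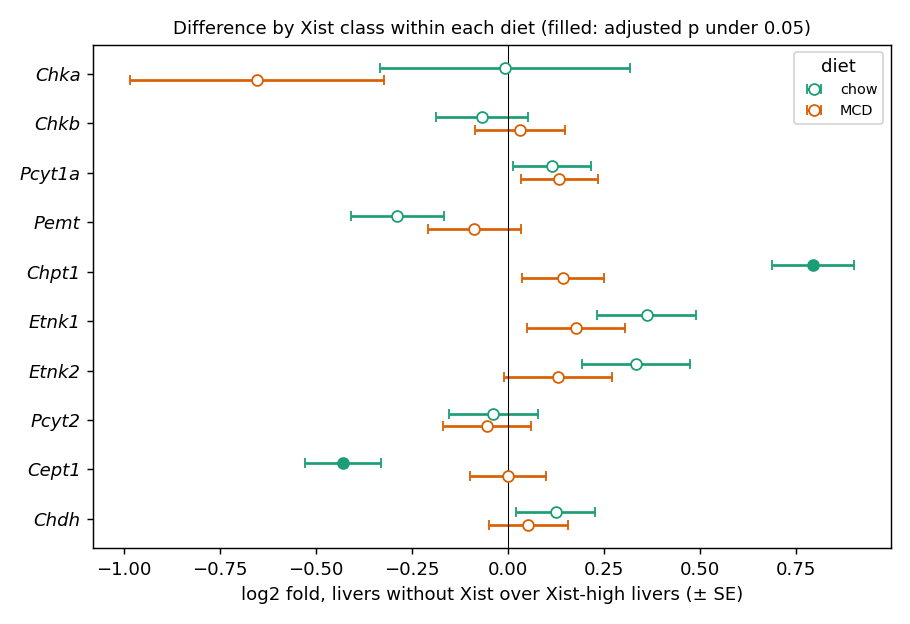
Log2 difference between livers without Xist and Xist-high livers (x axis, ± SE), averaged over the genotypes within chow and within MCD, for the 10 enzymes, with filled points at adjusted p under 0.05. Chpt1 lies at 0.80 and Cept1 at -0.43 on chow, and all 10 MCD points are open. On chow Xist class and mapping share cannot be told apart.

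Ethanolamine enters its own branch through ethanolamine kinase. Etnk1 (chr6:143167221-143232307) ran from 55.1 through 66.9 to 83.2 CPM in Cre chow livers and was 41.3, 33.1, 58.5, 42.9 and 38.4 in Cre MCD livers. Apart from replicate 3 with its muscle RNA, the Cre MCD livers lay below all Cre chow livers. The fall with MCD was to 0.632 of the chow level in Cre mice (log2 -0.66, SE 0.16, edgeR adjusted p = 0.0012), and in livers without Xist alone the value was -0.61 (edgeR adjusted p = 0.0819). In FLCN KO livers Etnk1 was 62.6, 68.7, 94.9, 63.6 and 65.8 CPM on chow and ran from 40.9 through 51.9 to 67.3 on MCD, a fall to 0.747 (log2 -0.42, SE 0.16, edgeR adjusted p = 0.0319). The call in FLCN KO mice held in 18 of 22 fits that left out 1 mouse. It was lost without FLCN KO Chow 3, the liver at 94.9 CPM (log2 -0.30, edgeR adjusted p = 0.129), and without FLCN KO MCD 2, 3 or 4. It held in 7 of 12 other alternatives, and was lost with no filter on low counts (-0.41), without the 5 chow livers of low mapping share (-0.32), with library size alone (-0.16) and in the livers of either Xist class alone (-0.28 with Xist and -0.63 without).

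Etnk2, the second ethanolamine kinase, known as the liver form (chr1:133363572-133380336), was set apart by genotype. On MCD it was 259, 257, 304, 299.7 and 261 CPM in Cre livers and ran from 122 through 175 to 208 in FLCN KO livers, so that the groups did not overlap. It was lower in FLCN KO mice at 0.603 of the Cre level (log2 -0.73, SE 0.16, edgeR adjusted p = 0.0041). This call held in all 22 fits that left out 1 mouse and in all 12 other alternatives. On chow, Cre livers ran from 183 through 293 to 430 CPM, and FLCN KO livers had 213, 191, 199.7, 162 and 241, with overlap. The log2 difference on chow was -0.57 (SE 0.17, edgeR adjusted p = 0.0345). Within Xist-high chow livers alone it was -0.26 (edgeR adjusted p = 0.433) and within those without Xist -0.78 (edgeR adjusted p = 0.12), and neither passed alone. The chow call held in 15 of 22 fits that left out 1 mouse, with log2 values from -0.68 to -0.44, and was lost without Cre Chow 1, 5 or 6, Cre MCD 5, or FLCN KO Chow 2, 3 or 4. Among 12 other alternatives it held in 5, and beside the fits of a single Xist class it was lost with replicate number as a block (-0.47), no filter on low counts (-0.54), only the groups compared (-0.54), library size alone (-0.42) and without the 5 chow livers of low mapping share (-0.26). The effect of diet passed no test for Etnk2.

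Pcyt2, the cytidyl transferase that commits ethanolamine to phosphatidylethanolamine (chr11:120610087-120617936), changed with diet in both genotypes. It ran from 557 through 584 to 638 CPM in Cre chow livers, and was 328, 391, 266, 431 and 363 in Cre MCD livers. Every Cre MCD liver lay below every Cre chow liver. In FLCN KO livers it was 621, 525, 467, 609 and 487 CPM on chow and ran from 350.4 through 383 to 424 on MCD, again without overlap. The fall was to 0.60 of the chow level in Cre mice (log2 -0.74, SE 0.11, edgeR adjusted p = 6.6e-06) and to 0.709 in FLCN KO mice (log2 -0.50, SE 0.11, edgeR adjusted p = 0.000658). An exact permutation test on the log2 CPM gave p = 0.0022 in each genotype, the smallest that 6 against 5 mice allow. In livers without Xist alone, the value in FLCN KO mice was -0.55 (edgeR adjusted p = 0.0749). The effects in the 2 genotypes differed by 0.24 on the log2 scale (SE 0.15, edgeR adjusted p = 0.348).

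Pemt methylates phosphatidylethanolamine to phosphatidylcholine (chr11:59970614-60046489). In Cre livers it ran from 287 through 327 to 446 CPM on chow and was 341, 326, 283, 376 and 429 on MCD, with full overlap and a log2 fold change of 0.02 (SE 0.13, edgeR adjusted p = 0.899). In FLCN KO livers it was 303, 322, 239, 344 and 315 CPM on chow and ran from 372 through 454 to 529 on MCD. Every FLCN KO MCD liver lay above every FLCN KO chow liver, and the rise was 1.51-fold (log2 0.59, SE 0.13, edgeR adjusted p = 0.000833). Between genotypes on MCD, Pemt was 1.31-fold higher in FLCN KO livers (log2 0.39, SE 0.13, edgeR adjusted p = 0.0434), and the groups overlapped. This genotype call held in 13 of 22 fits that left out 1 mouse and was lost without Cre Chow 3, Cre MCD 1, 2, 3 or 4, FLCN KO Chow 5, or FLCN KO MCD 2, 3 or 6, the lowest log2 value being 0.32 (edgeR adjusted p = 0.106) without Cre MCD 3. It held in 7 of 12 other alternatives and was lost with replicate number as a block (0.39, edgeR adjusted p = 0.0697), with no filter on low counts (0.39), with only the groups compared (0.39) and in the livers of either Xist class alone (0.34 with Xist and 0.46 without). The test of whether the diet effect differed between genotypes did not pass, with a log2 difference of 0.57 (SE 0.18, edgeR adjusted p = 0.0542). It passed in 3 of 22 fits that left out 1 mouse and in 2 of 11 other alternatives, DESeq2 and Xist class as a covariate. With Xist class as a covariate the log2 difference was 0.61 (edgeR adjusted p = 0.0262), and within Xist-high livers alone it was 0.57 (edgeR adjusted p = 0.133). Within a library, the ratio of Pemt to Pcyt1a reads compares 1 transcript of the methylation route with 1 of the Kennedy pathway. It is not adjusted for length and does not measure the routes themselves. On the log2 scale it was 2.06 ± 0.35 in Cre chow and 2.15 ± 0.29 in Cre MCD (SD). In FLCN KO livers it was 1.77 ± 0.26 on chow and 2.30 ± 0.36 on MCD.

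Chdh, the mitochondrial dehydrogenase that starts choline on the way to betaine (chr14:30009023-30040527), kept to a narrow range of 116 to 189 CPM in all livers. Its log2 effect of MCD was -0.13 in Cre mice (95% interval -0.34 to 0.08) and 0.19 in FLCN KO mice (-0.02 to 0.40), and the groups overlapped in every pair. The difference between these effects was 0.32 (SE 0.14, edgeR adjusted p = 0.17).

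**Figure D3:**
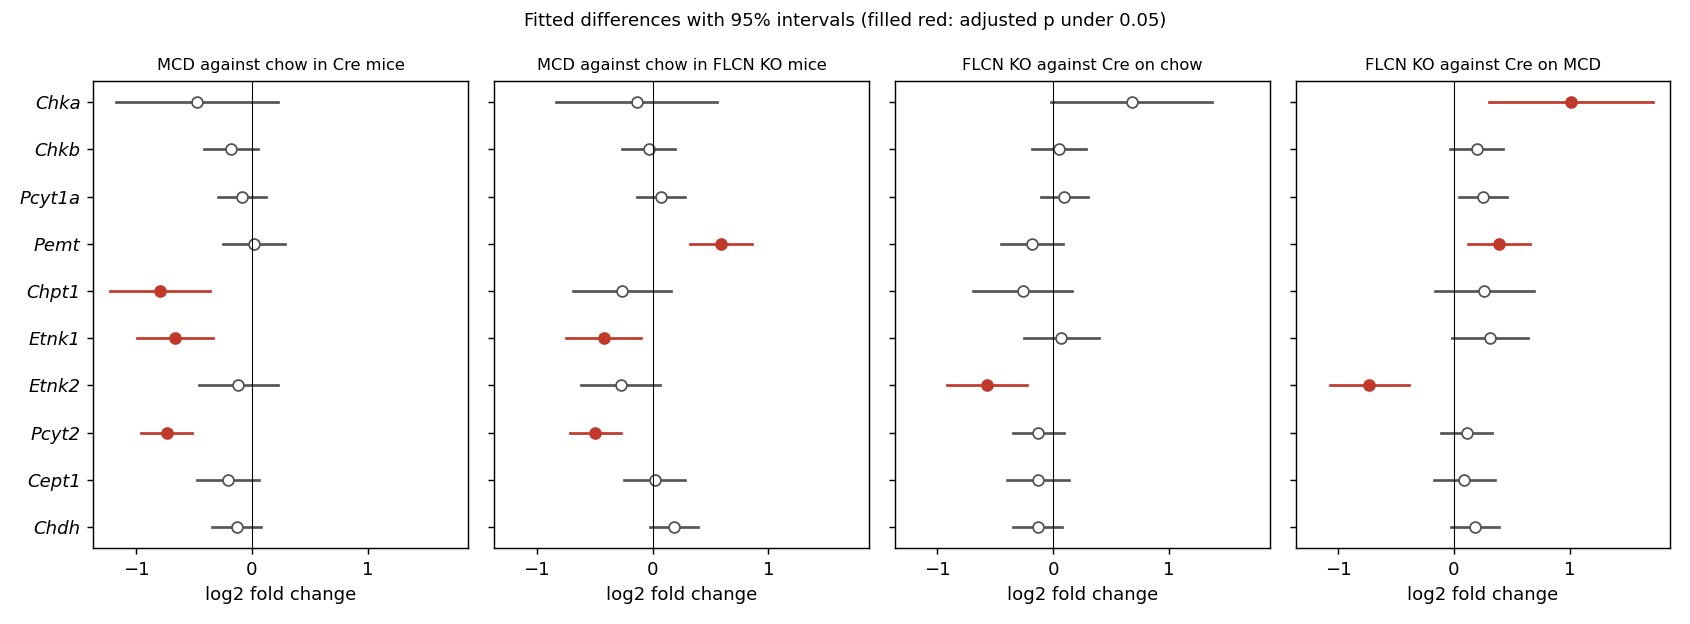
Fitted log2 fold changes (x axis) with 95% intervals of the 10 enzymes in the 4 pairwise comparisons, filled red at adjusted p under 0.05. Pcyt2 and Etnk1 lie below 0 with MCD in both genotypes, and Etnk2 lies below 0 in FLCN KO against Cre on both diets.

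Counted together, 3 of the 10 enzymes fell and 0 rose with MCD in Cre mice, where 57.5% of all genes tested passed, 29.3% higher and 28.2% lower. In FLCN KO mice 2 fell and 1 rose, where 45% passed, 22.5% higher and 22.5% lower. Against Cre mice on chow, FLCN KO livers had 1 enzyme lower and 0 higher, where 8.62% passed, 5.52% higher and 3.1% lower. On MCD 1 was lower and 2 were higher, where 16.6% passed, 8.06% higher and 8.53% lower. The enzymes thus passed the diet test at a lower share than all genes, and no test was made of that difference. For the interaction of genotype and diet, edgeR called 0 enzymes, with 2 at an unadjusted p under 0.05, and DESeq2 called 1, Pemt, while 8.83% of all genes tested passed with edgeR, 3.29% higher and 5.54% lower. With TMM scaling the median log2 fold change of the 10 enzymes was -0.19 with MCD in Cre mice and 0.23 for FLCN KO against Cre on MCD, beside 0.01 and -0.01 over all genes tested. It was -0.08 with MCD in FLCN KO mice, -0.13 for genotype on chow and 0.24 for the interaction, beside 0.00, -0.03 and 0.03.

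The scaling set the direction of several diet values. With TMM factors the median of all genes tested was 0.01 with MCD in Cre mice, and with library size alone it was 0.43, and in FLCN KO mice it moved from 0.00 to 0.27. The order of the 10 enzymes by log2 fold change was the same under both scalings in each genotype. Under library size alone Pcyt2 still fell in Cre mice (log2 -0.31, edgeR adjusted p = 0.0177), while Chpt1 at -0.36 and Etnk1 at -0.24 no longer passed. Pcyt1a and Chdh turned from -0.08 and -0.13 to 0.34 and 0.29 in Cre mice and then passed as higher, as did Pemt at 0.44. Chkb, Cept1 and Etnk2 also turned from negative to positive values in Cre mice, without passing. In FLCN KO mice Pemt rose under both scalings, at 0.59 and 0.85, while under library size alone Pcyt2 at -0.24 and Etnk1 at -0.16 no longer passed, and Pcyt1a at 0.33 and Chdh at 0.45 passed as higher. With that scaling 56.2% of all genes tested were called higher and 12.4% lower with MCD in Cre mice. The shares in FLCN KO mice were 41.3% and 12.3%.

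**Figure D4:**
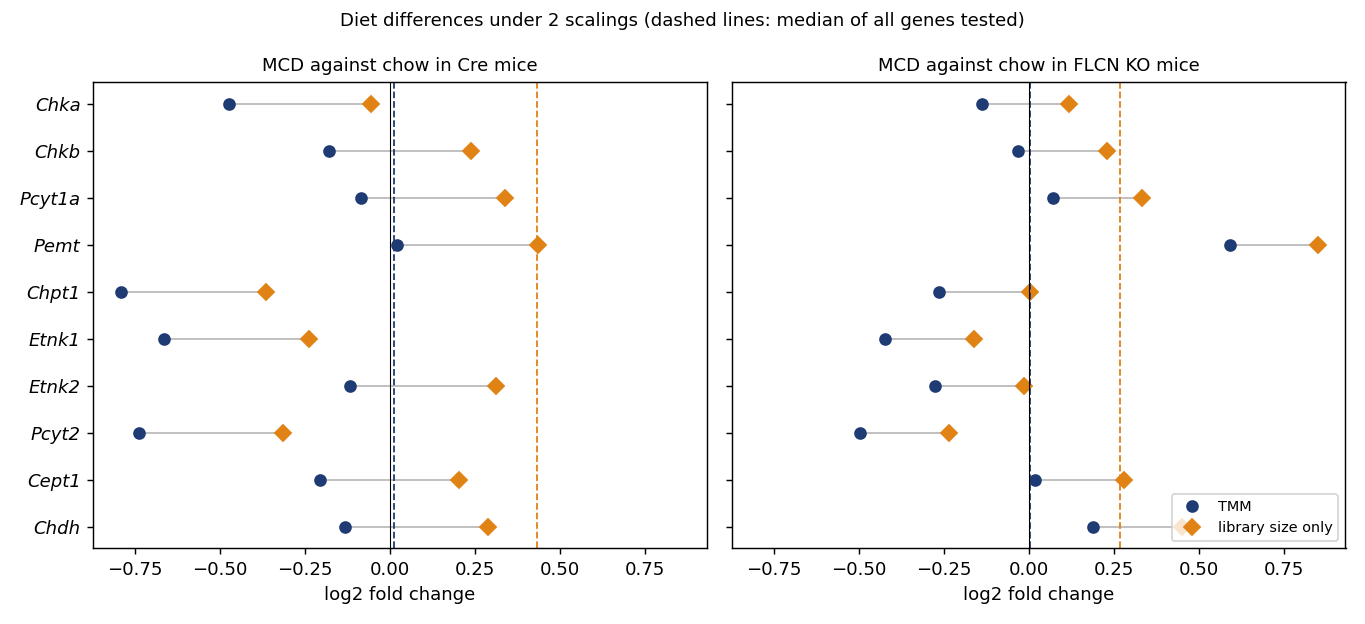
Log2 fold change with MCD (x axis) of the 10 enzymes under TMM scaling (circles) and library size alone (diamonds) in each genotype, with dashed lines at the median of all genes tested. All 10 enzymes move to the right by about the shift of the median, which is 0.43 in Cre mice and 0.27 in FLCN KO mice under library size alone.

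Liver cell types were followed with marker lists in the same libraries. In bulk liver, fewer cells of a type and less RNA per cell cannot be told apart. The counts of markers below stand beside 29.3% of all genes tested that rose and 28.2% that fell with MCD in Cre mice, and 22.5% each in FLCN KO mice. Of 9 hepatocyte markers, 6 fell and 0 rose with MCD in Cre mice, and 5 fell and 1 rose in FLCN KO mice. Their summed level went from 146780 ± 21300 CPM to 105050 ± 15970 in Cre mice and from 122930 ± 20730 to 89801 ± 10463 in FLCN KO mice (SD), with Alb the most abundant. Of 7 periportal markers 6 fell in each genotype, and of 7 pericentral markers 4 fell in Cre mice and 5 in FLCN KO mice. Stellate cell markers rose in 6 of 8 and fell in 0 in Cre mice, and 0 rose and 1 fell in FLCN KO mice. Macrophage markers rose in 3 of 8 and fell in 1 in Cre mice, and 0 rose and 3 fell in FLCN KO mice. Bile duct markers rose in 3 of 5 and fell in 0 in Cre mice, and 0 rose and 0 fell in FLCN KO mice. By the interaction test, 4 of 8 stellate cell markers and 2 of 8 macrophage markers had a lower diet effect in FLCN KO mice, beside 5.54% of all genes tested. Of 6 endothelial markers 1 rose and 3 fell in Cre mice and 4 fell in FLCN KO mice, and of 7 lymphocyte and neutrophil markers 3 rose in Cre mice, while 2 rose and 2 fell in FLCN KO mice. All 10 muscle genes were called higher with MCD in Cre mice, where replicate 3 held most of their reads. Of 5 adipocyte markers only Cidec, a lipid droplet gene that fatty hepatocytes also use, was tested, and it rose in both genotypes. The part of these markers in the changes of the 10 enzymes was not tested.

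The other genes of choline and phospholipid handling were followed in 6 lists of 55 genes, of which 48 were tested. With MCD, 16 rose and 17 fell in Cre mice, where 29.3% of all genes tested rose and 28.2% fell, and 9 rose and 9 fell in FLCN KO mice, where 22.5% rose and 22.5% fell. Against Cre, FLCN KO livers had 6 higher and 3 lower on chow, beside 5.52% and 3.1% of all genes tested, and 8 higher and 7 lower on MCD, beside 8.06% and 8.53%. The interaction called 2 positive and 2 negative, beside 3.29% and 5.54%. The counts for diet depended on the scaling: with library size alone 25 rose and 6 fell in Cre mice, where 56.2% of all genes tested rose and 12.4% fell, and 18 rose and 5 fell in FLCN KO mice, where 41.3% rose and 12.3% fell. Of the genes named below as falling with MCD in Cre mice, Ptdss1 (-0.06), Pld1 (-0.06), Lpin1 (-0.79) and Pctp (-0.40) did not pass with library size alone, nor did Pnpla6 (-0.15) and Pctp (-0.46) in FLCN KO mice and Pctp between genotypes on chow (-0.65). With that scaling Etnppl (0.59) and Gdpd1 (0.92) passed as higher in FLCN KO mice. Apart from Dmgdh and Slc6a12, the genes named below are those with the largest called changes with MCD in Cre mice in each list. They are up to 2 rising and 2 falling genes per list, at a mean of 1 CPM or more. Their interaction values reuse the Cre values they were chosen by, which tilts them against the change in Cre mice.

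Of 7 choline transport genes tested, 3 were higher and 1 was lower with MCD in Cre mice, beside 29.3% and 28.2% of all genes tested. Slc44a1, the choline transporter-like protein of the plasma membrane, fell from 69.9 ± 16.2 to 25.6 ± 4.99 CPM in Cre mice and from 65.3 ± 9.06 to 26.5 ± 3.56 in FLCN KO mice (log2 -1.45 and -1.30, edgeR adjusted p = 2.3e-07 and 1.3e-06). In both genotypes no MCD liver reached the lowest chow liver. Flvcr2, a choline transporter, rose by 2.09 in Cre and 1.73 in FLCN KO mice, and was also higher in FLCN KO than in Cre livers on chow (0.90, edgeR adjusted p = 0.00835). Mfsd2a, which carries lysophosphatidylcholine, rose from 49.7 ± 24.5 to 210 ± 38.2 CPM in Cre and from 19.4 ± 9.11 to 54.7 ± 14.9 in FLCN KO livers, and was lower in FLCN KO livers on both diets (log2 -1.35 and -1.94, edgeR adjusted p = 0.00875 and 0.000177).

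Downstream of Chdh, 3 of 6 genes of choline oxidation and betaine use fell in Cre mice and 0 rose with TMM scaling, beside 28.2% and 29.3% of all genes tested. Aldh7a1, which oxidises betaine aldehyde to betaine, fell from 588 ± 103 to 171 ± 16.5 CPM in Cre livers and from 571 ± 32.5 to 146 ± 6.88 in FLCN KO livers (log2 -1.78 and -1.96, edgeR adjusted p = 2.7e-11 and 1.6e-11). Sardh, the sarcosine dehydrogenase, fell by 1.13 and 1.502 on the log2 scale, and on MCD it was lower in FLCN KO livers (-0.51, edgeR adjusted p = 0.0273). With library size alone Aldh7a1 and Sardh were still called lower with MCD in Cre mice. Dmgdh (log2 0.39, edgeR adjusted p = 0.00688) and Slc6a12 (0.51, edgeR adjusted p = 0.00393) were then called higher.

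Of 7 genes of phosphatidylethanolamine and phosphatidylserine, 2 rose and 4 fell in Cre mice with TMM scaling, beside 29.3% and 28.2% of all genes tested. Etnppl, which breaks down phosphoethanolamine, the product of Etnk1 and Etnk2, fell from 160.5 ± 18.5 to 75.8 ± 11.6 CPM in Cre mice, and was 155 ± 21.2 on chow and 196 ± 51.9 on MCD in FLCN KO mice. The diet effects differed by 1.42 on the log2 scale (edgeR adjusted p = 0.000912). Pisd, which makes phosphatidylethanolamine from phosphatidylserine in mitochondria, rose by 0.67 in Cre and 0.69 in FLCN KO mice. Ptdss1, which makes phosphatidylserine from phosphatidylcholine, fell by 0.47 in Cre mice, and its log2 value in FLCN KO mice was -0.16 (edgeR adjusted p = 0.258). Phospho1, a phosphatase of phosphocholine and phosphoethanolamine, rose by 0.94 in Cre mice from a low level of 1.15 ± 0.364 CPM and was higher in FLCN KO livers on both diets (log2 2.02 and 1.21). With library size alone Etnppl was the only gene of this list called lower with MCD in Cre mice, and Pisd and Phospho1 were among those called higher.

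Diacylglycerol, the partner of CDP-choline, is supplied by the lipins. In Cre mice Lpin3 went up from 5.76 ± 0.493 to 19.8 ± 5.82 CPM, and in FLCN KO livers from 5.80 ± 0.537 to 10.8 ± 1.48, and the 2 effects differed by -0.88 on the log2 scale (edgeR adjusted p = 0.0157). Lpin1 fell by 1.22 in Cre mice, where chow livers spread from 64.2 to 412 CPM, and its log2 value in FLCN KO mice was -0.08. Among 13 genes of phosphatidylcholine turnover 4 rose and 4 fell in Cre mice with TMM scaling, beside 29.3% and 28.2% of all genes tested. The phosphodiesterase Gde1 rose by 0.51 and 0.91 on the log2 scale in Cre and FLCN KO mice, and Gdpd1 rose by 1.38 in Cre mice, while its value in FLCN KO mice was 0.65 (edgeR adjusted p = 0.0785). Gdpd1 was also higher in FLCN KO than in Cre livers on both diets (1.85 and 1.13). The phospholipase Pnpla6 fell by 0.80 and 0.41, and Pld1 fell by 0.48 in Cre mice, with a value of -0.38 in FLCN KO mice (edgeR adjusted p = 0.0586). With library size alone Pnpla6 was the only turnover gene called lower with MCD in Cre mice, and Gde1 and Gdpd1 were among those called higher.

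For remodelling and transport of phosphatidylcholine, 6 of 12 genes rose and 4 fell in Cre mice, where 57.5% of all genes tested were called. In FLCN KO mice 2 rose and 2 fell, where 45% were called, and the interaction called 1 positive and 1 negative. These counts are with TMM scaling. With library size alone Lcat was the only gene of this list called lower with MCD in Cre mice, and Lpcat2 and Lpcat4 were among those called higher. Lcat, which the liver secretes to esterify cholesterol with fatty acids of phosphatidylcholine, fell from 431 ± 36.8 to 203 ± 11.0 CPM in Cre and from 399.5 ± 34.5 to 215 ± 27.3 in FLCN KO mice. Pctp, the phosphatidylcholine transfer protein, fell by 0.81 and 0.72 on the log2 scale and was lower in FLCN KO livers on both diets (-0.79 and -0.70). The acyltransferases Lpcat4 and Lpcat2 rose by 0.93 and 0.72 in Cre mice from levels of 0.786 and 2.78 CPM, and their values in FLCN KO mice were -0.15 and -0.29. For Lpcat2 the effects differed between genotypes by -1.01 (edgeR adjusted p = 0.0438), and on chow it was higher in FLCN KO livers (0.78, edgeR adjusted p = 0.0321).

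**Figure D5:**
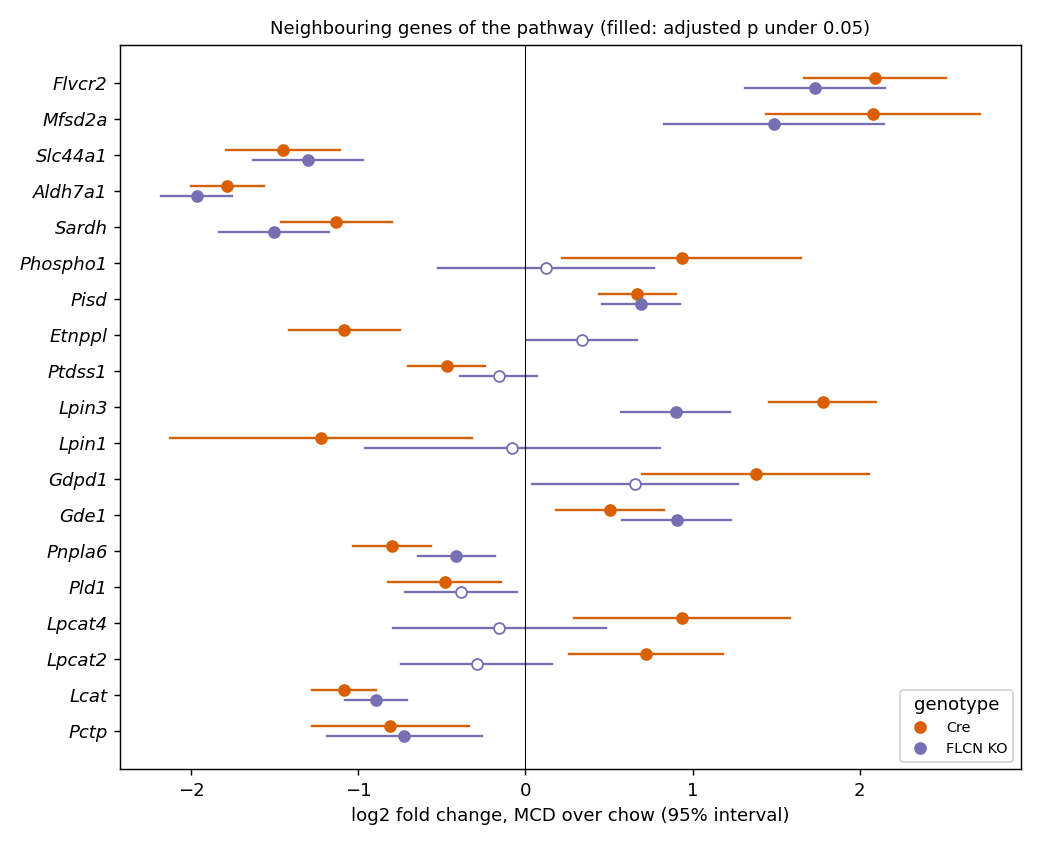
Log2 fold change with MCD (x axis, 95% intervals) of 19 genes of choline and phospholipid handling in Cre and FLCN KO mice, with filled points at adjusted p under 0.05. The transporters Flvcr2 and Mfsd2a lie near 2 and Aldh7a1 lies near -1.8 in Cre mice, and Etnppl lies on opposite sides of 0 in the 2 genotypes, filled in Cre mice only.

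The genes whose levels were most like those of Chpt1, the enzyme with the largest called fall in Cre mice in the fit over all 22 libraries with TMM scaling, were Mup21, Scp2, Gm31583, Rassf3 and Scp2-ps2, with Pearson correlations of log2 CPM of 0.95, 0.94, 0.92, 0.91 and 0.91 over the 22 libraries. Pcyt2 stood at -0.74 beside -0.79 for Chpt1. Pcyt2 would take that place with library size alone or without the 5 chow livers of low mapping share, where Chpt1 was not called. In Xist-high Cre livers alone, mean CPM went from 143 on chow to 103 on MCD for Chpt1 and from 611 to 361 for Pcyt2. The points share groups, Xist class and libraries, and the values are a description. Scp2-ps2 is named as a pseudogene of Scp2, so reads of the 2 may be split between them. Mup21, a major urinary protein gene, fell by 5.60 and 2.72 on the log2 scale with MCD in Cre and FLCN KO mice, and Scp2, the sterol carrier protein, by 1.42 and 0.87. No enzyme was called higher in Cre mice in the fit with TMM scaling, so none was matched on that side. With library size alone Pcyt1a, Chdh and Pemt were called higher there, beside 56.2% of all genes tested.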

How the data were processed

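The authors isolated total RNA from frozen liver, made mRNA libraries with adapters carrying molecular identifiers, trimmed reads with Trimmomatic, aligned them to GRCm38 with STAR and counted them with HTSeq. They deposited whole-number read counts per gene for 55573 genes in 22 columns, without normalization. Collapsing by identifier, the strand setting and the annotation release are not given in the sources used here. Counts were fitted with edgeR 4.0.16 (TMM, quasi-likelihood F-test, 4 groups, the 14062 genes averaging 10 reads or more, Benjamini-Hochberg over all of them, called at adjusted p under 0.05). This differs from the limma fit of the study, which was an alternative here (limma 3.58.1, with DESeq2 1.42.0 as another). RPKM used GENCODE M21 exon lengths. Depth was 13751347 to 21144388 reads per library, and errors from counting alone understate amplification noise. Mice are the replicates, and no 2 of the 50 within-group pairs of libraries were identical.

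The enzymes and all gene lists were chosen with earlier results of these data known. Named genes were the 10 enzymes, up to 2 rising and 2 falling genes per list with the largest called change with MCD in Cre mice at a mean of 1 CPM or more, the 5 genes most correlated with the enzyme of largest called rise or fall, and Flcn. Dmgdh and Slc6a12 were also named, for their calls with library size alone. The Xist class of each library was read from the counts, and the comparisons by class and the scaling by library size alone were added after seeing the data. The edgeR step was checked on simulated data. A gene of the lists is not reported here and was left out of their counts.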

Additional observations from a re-analysis of the deposited data

Results flagged for a closer look

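Of 44 combinations of gene (the 10 enzymes and Flcn) and group, 1 had a liver far from the others of its group: Etnk1 in FLCN KO Chow replicate 3 stood at 94.9 CPM, with the next highest liver at 68.7. The gap was 0.809 of the range of the 5 livers, against a critical value of 0.71, and chance flags about 1 in 20 groups.

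The diet effect differed between genotypes for 3 of the neighbouring genes that were named for their large change with MCD in Cre mice. The same Cre values enter the interaction, so this choice tilts it against the direction of the change in Cre mice. Over all 48 list genes tested the interaction called 2 positive and 2 negative, beside 8.83% of all genes tested. The log2 effect of MCD in FLCN KO minus that in Cre mice was 1.42 for Etnppl, -0.88 for Lpin3 and -1.01 for Lpcat2 (edgeR, interaction term). For Chpt1 the difference between livers without Xist and Xist-high livers was 0.65 lower on MCD than on chow (log2 value -0.65, edgeR). The chow livers without Xist were all of low mapping share and no MCD liver was. Xist class and mapping share therefore cannot be told apart on chow.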

How the results depend on the processing

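With MCD the count of enzymes called was 3 in Cre mice in every fit that left out 1 mouse, and 2 to 3 in FLCN KO mice. For FLCN KO against Cre on chow it was 0 to 1, on MCD 1 to 3, and for the interaction 0 to 1. By Xist class it was 2 to 3 on chow, 0 on MCD and 1 to 2 for the difference between diets. The chow genotype call, Etnk2, was lost (0 enzymes) with no filter on low counts, with only the groups compared, with library size alone, without the 5 chow libraries of low uniquely mapped share, and in the livers of either Xist class alone. On MCD, livers without Xist alone gave 1 enzyme, and Xist-high livers alone gave 4, losing Pemt and adding Chpt1 (0.47) and Etnk1 (0.54). The interaction gave 1, Pemt, with DESeq2 and with Xist class as a covariate. For the difference between diets by Xist class, library size alone and no filter each gave 2, and no filter gave 1 on MCD. Library size alone turned 5 values of the enzymes with MCD in Cre mice from negative to positive, of which 2 then passed, Pcyt1a at 0.34 and Chdh at 0.29, and raised the share of called genes that were higher from 50.9% to 81.9% in Cre mice, from 50% to 77% in FLCN KO mice and from 64% to 92.1% for genotype on chow, and lowered it from 37.3% to 12.5% for the interaction. The causes were not tested, and fits of 1 Xist class hold fewer mice. Of 1100 values of the enzymes with 1 mouse left out, 1049 kept direction and side of the threshold, as did 523 of 590 under the other alternatives.

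With replicate number as a block the enzyme counts were 3 and 3 for diet in Cre and FLCN KO mice, 0 for genotype on chow, 2 on MCD and 0 for the interaction, where genes called went from 1242 to 552. The numbers gave no consistent pairing of the mice: the mean correlation of same-numbered livers lay between -0.08 and 0.13 over 4 pairs of groups. Single pairs ran from -0.14 to -0.01 between diets in Cre mice and from -0.19 to 0.21 in FLCN KO mice. Between genotypes they ran from -0.55 to 0.47 on chow and from 0.06 to 0.26 on MCD. With the longest transcript as length all RPKM rose, and with a prior count of 0.5 the ratios moved by less than their SD. Genes called for the interaction also went from 1242 to 783 without the 5 chow libraries and to 63 in livers without Xist, and for genotype on chow from 1212 to 495 and 335, with 627 in Xist-high livers. Without FLCN KO Chow replicate 4 alone, 669 genes were called for genotype on chow and 813 for the interaction, and without Cre MCD replicate 1 the interaction had 817. In livers without Xist, 720 in place of 2333 were called for genotype on MCD, 4685 in place of 8089 for diet in Cre mice and 2905 in place of 6328 in FLCN KO mice.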
